A study of Mus musculus with 2 samples.

Results

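The glycolytic enzymes of the E15.5 mouse fetal ovary were described across germ cells and soma, with and without the glucocorticoid receptor (GR, encoded by Nr3c1). The set held 10 genes chosen by symbol: Hk1, Gpi1, Aldoa, Tpi1, Gapdh, Pgk1, Eno1, Pkm, Ldha and Ldhb. Each symbol matched 1 row among the 27998 genes of both count matrices. In the study Gapdh was a negative-control target of the qRT-PCR assays and its protein the loading control of the Western blots, so its ratio was read beside those of the other 9 enzymes.

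The data were single-cell RNA-seq counts (10x Genomics 3′ capture) from 1 library per genotype. The KO cells came from the ovary pairs of 2 pooled female embryos homozygous for a constitutive deletion of GR (strain Tg(Pou5f1-EGFP)2Mnn Nr3c1tm1.1Jda), which is carried by every cell type. The WT cells came from 4 pooled ovary pairs of the same strain with wild-type GR. All embryos were collected at E15.5 from crosses of heterozygous parents, the mesonephroi were removed, and no agent was given. Both groups carried the Pou5f1-GFP transgene (OCT4-GFP), by which germ cells were sorted before somatic cells were added back at 60% germ to 40% soma. With 1 library of pooled embryos per genotype, embryo, library and genotype cannot be told apart, and no test between genotypes was possible. Cells of 1 library are not replicates. Intervals printed here are exact 95% intervals that cover counting error only, and UMIs (unique molecular identifiers, 1 per captured transcript) were summed over the cells of a class and given as CPM, the UMIs of a gene per 1000000 UMIs of that class.

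Within the limits of the study on genes, UMIs and mitochondrial share, 15502 KO cells and 9045 WT cells were kept, with 173070134 and 151546089 UMIs. KO cells were shallower, with a median of 10195 UMIs against 15685 in WT. The 2 libraries shared 27 cell barcodes among the 24547 kept cells. Nr3c1, the deleted gene, was at 11.6 CPM in KO germ-like cells and 71.9 CPM in WT germ-like cells, a log2 ratio of −2.63 (−2.71 to −2.55). Among somatic classes its ratio was −2.05 for granulosa-like cells, −2.07 for epithelia-like cells and −1.91 for theca-like cells. Cells were clustered without the 10 enzymes or the other carbohydrate genes used here and named from marker genes, which gave 10206 KO and 6792 WT germ-like cells, and each germ cluster had 9 or 10 of the 10 germ markers above 2-fold. In somatic-like cells the summed levels of markers of other cells were 9.2 to 9.99 CPM for Sertoli, 21.5 to 25.2 CPM for Leydig, 2.05 to 3.42 CPM for mesonephric, 51.0 to 56.1 CPM for neural crest and 128 to 129 CPM for muscle, with no more than 1 marker of a list at 0.

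Glycolysis splits glucose into pyruvate in the cytosol. Hexokinase traps glucose as its phosphate, glucose phosphate isomerase, aldolase and triose phosphate isomerase rearrange and split the sugar, and glyceraldehyde phosphate dehydrogenase, phosphoglycerate kinase, enolase and pyruvate kinase then yield ATP, NADH and pyruvate. Lactate dehydrogenase links pyruvate to lactate, and follicular somatic cells are known to pass pyruvate and lactate to oocytes, which use glucose poorly by themselves. Glucocorticoids are best known in carbohydrate metabolism for raising gluconeogenesis in the liver.

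By the GENCODE mouse annotation on GRCm38, the build named mm10 in the processing notes, all 10 genes were protein coding. Gapdh lay on chromosome 6 from 125161715 to 125166467 on the minus strand. Tpi1 (124810586 to 124814296) and Ldhb (142490249 to 142507957) were on the minus strand of the same chromosome. Chromosome 7 held Gpi1 (34201330 to 34230336) and Aldoa (126795234 to 126800751) on the minus strand and Ldha (46841475 to 46855627) on the plus strand. Hk1 was on chromosome 10 (62268855 to 62379908, minus strand), Pgk1 on X (106187100 to 106203699, plus strand), Eno1 on 4 (150236721 to 150248879, plus strand) and Pkm on 9 (59656368 to 59679375, plus strand).

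The 250 bases before a start site are shown for Gapdh and for the lactate dehydrogenase pair, of which Ldhb had the largest KO over WT ratio in germ-like cells. These 3 windows overlap no annotated exon. The Gapdh and Ldha windows lie inside the gene spans given above, so their start sites are not the outermost ones. Only the Ldhb window lies outside its gene. Sequences are from RefSeq (GRCm38.p6), read 5′ to 3′ on the strand of the gene, and capitals mark ACGTG or GCGTG, the core of the hypoxia response element, on either strand. The Gapdh window is chr6:125165774-125166023 (minus strand), the Ldha window is chr7:46845554-46845803 (plus strand) and the Ldhb window is chr6:142507958-142508207 (minus strand).
Gapdh: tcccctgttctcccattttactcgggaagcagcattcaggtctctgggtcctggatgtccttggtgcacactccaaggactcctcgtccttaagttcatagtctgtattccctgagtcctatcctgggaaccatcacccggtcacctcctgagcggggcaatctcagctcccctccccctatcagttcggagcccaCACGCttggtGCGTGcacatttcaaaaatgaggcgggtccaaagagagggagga
Ldha: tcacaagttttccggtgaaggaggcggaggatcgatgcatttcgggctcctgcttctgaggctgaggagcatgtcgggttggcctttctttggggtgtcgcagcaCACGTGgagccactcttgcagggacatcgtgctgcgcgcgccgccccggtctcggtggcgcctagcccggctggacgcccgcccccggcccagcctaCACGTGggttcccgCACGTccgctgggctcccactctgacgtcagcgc
Ldhb: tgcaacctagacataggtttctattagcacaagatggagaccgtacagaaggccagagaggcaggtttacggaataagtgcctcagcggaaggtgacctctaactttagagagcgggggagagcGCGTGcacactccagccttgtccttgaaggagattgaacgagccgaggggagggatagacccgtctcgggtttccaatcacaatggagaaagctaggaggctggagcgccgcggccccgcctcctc

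Among the 17 start sites listed for the 10 genes, 12 windows held at least 1 of the 2 cores, against 38.6% of all 32851 windows of the same length. The 12 windows belonged to 8 genes, all but Gpi1 and Tpi1. Some windows of Eno1 overlap each other, as do some of Aldoa, so the same core can be counted more than once. The Ldha window that is not printed held 1 GCGTG core. The palindrome CACGTG, which contains ACGTG, was found only in the Ldha window printed above among the enzymes and in 6.02% of all windows. A full glucocorticoid response element, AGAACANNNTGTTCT, was in none of the 17 windows and in 3 of all windows, while its half-site AGAACA was in 5 of the 17 and in 16.1% of all. Those 5 windows belonged to 4 genes, Hk1, Aldoa, Tpi1 and Gapdh, and the Aldoa windows among them overlap. The Gapdh window printed above held 1 half-site, which is not marked there. A match is a description of letters in a short window and not a bound site.

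Every enzyme was lower in germ-like cells than in soma, in both libraries. In WT, germ-like cells held Gapdh at 132 CPM against 1180 CPM in soma, and in KO at 169 against 1177 CPM, log2 differences of −3.16 (−3.19 to −3.14) and −2.80 (−2.83 to −2.78). Tpi1, which interconverts the 2 triose phosphates, showed the widest gap, at 6.77 CPM in germ-like against 422 CPM in somatic-like WT cells (−5.96) and at 8.78 against 403 CPM in KO (−5.52). Gpi1, which makes fructose phosphate, showed the narrowest, at 58.7 against 118 CPM in WT (−1.0) and at 59.5 against 117 CPM in KO (−0.98). The median over the 10 enzymes was −4.06 in WT and −3.68 in KO, while the median over all genes was 0.01 in WT and −0.10 in KO. At a limit of a log2 difference of 1, all 10 enzymes were lower in WT germ-like cells, beside 31.8% of 13947 genes, and 9 were lower in KO, beside 33.4% of 14196 genes.

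Ldha and Ldhb, the muscle-type and heart-type subunits of lactate dehydrogenase, were both far below their somatic level. Ldha stood at 11.4 against 357 CPM in WT (−4.96) and at 13.9 against 352 CPM in KO (−4.66). Ldhb stood at 22.0 against 575 CPM in WT (−4.71) and at 31.5 against 579 CPM in KO (−4.20). Pkm, pyruvate kinase of the muscle type, showed a smaller gap, at 87.8 against 351 CPM in WT (−2.00) and 93.1 against 354 CPM in KO (−1.93). Aldoa, the widely expressed aldolase, was at 24.4 against 515 CPM in WT (−4.40) and 30.9 against 511 CPM in KO (−4.05). Eno1, enolase 1, was at 8.57 against 165 CPM in WT (−4.27) and at 10.1 against 202 CPM in KO (−4.32). Pgk1, phosphoglycerate kinase, and Hk1, a hexokinase, rested on fewer UMIs: Pgk1 had 383 UMIs and Hk1 97 UMIs in WT germ-like cells, with log2 differences of −2.33 and −3.86.

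**Figure D1:**
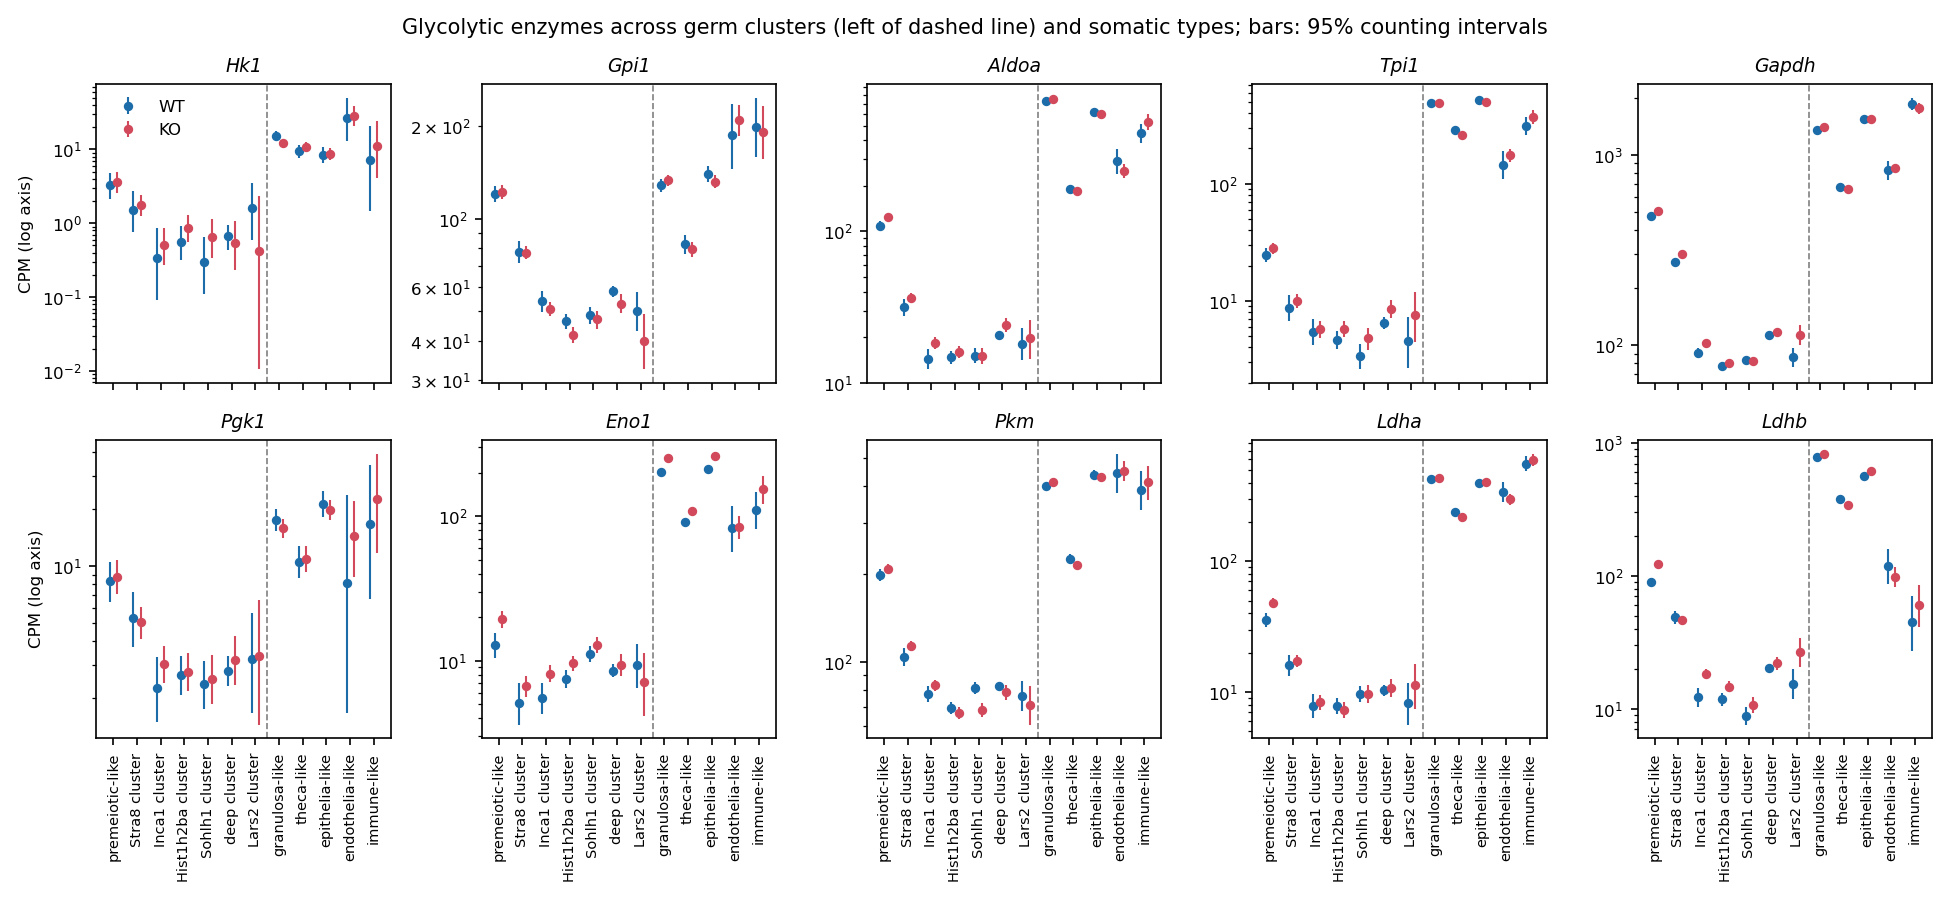
Level of each enzyme in 7 germ clusters (left of the dashed line) and 5 somatic types, in CPM on a log axis, with WT in blue and KO in red and bars for exact 95% counting intervals. The enzymes are lower in the later germ clusters than in premeiotic-like cells (Gapdh in WT at 94.6 and 476 CPM) and highest in soma, where Ldhb is low in immune-like cells (45.0 CPM in WT).

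Germ-like cells formed 7 clusters. A premeiotic-like cluster (662 KO and 325 WT cells) carried 7 of 10 premeiotic and 5 of 9 meiotic entry markers. A cluster led by Stra8, a gene of meiotic entry, when set against the other germ clusters held 1455 KO and 377 WT cells. Stra8 was higher still in premeiotic-like cells, at 1600 CPM in WT and 1543 CPM in KO against 921 and 1005 CPM. The name premeiotic-like thus does not mean cells without Stra8. The other 5 are here called later germ clusters, each named by depth or by a gene among its 10 leading genes. They are the Inca1, Hist1h2ba, Sohlh1 and Lars2 clusters and the deep cluster, led by Gm10031 and Nr3c1 (a median of 24230 UMIs in WT). The first genes of the Hist1h2ba cluster were Xist and mitochondrial transcripts, in which the Lars2 cluster was rich too. Hist1h2ba was at 112 CPM there in WT and at 109 CPM in the Sohlh1 cluster. Nr3c1 is the deleted gene, so cells were also clustered without it, an alternative chosen after the data were seen. Of the 2397 cells of the deep cluster, 2203 (91.9%) then still fell into 1 germ cluster, of 2620 cells. It was again led by Gm10031 and had a median of 23139 UMIs in WT. A finer clustering held a germ-like cluster of 83 KO and 515 WT cells, with medians of 26994 and 31746 UMIs. Nr3c1, Lgals7 and Hes1 were leading genes both of this cluster and of the deep cluster. Its leading genes also included the granulosa markers Gng13 and Wnt6. The overlap of the 2 clusters and the part of doublets (barcodes of mixed cells) in them were not tested.

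Gapdh was lower at each step of this order. In WT it was at 476 CPM in premeiotic-like cells, 274 CPM in the Stra8 cluster and 78.0 to 112 CPM in the later clusters, and in KO at 509, 301 and 80.6 to 116 CPM. The log2 difference between the pooled later clusters and premeiotic-like cells was −2.33 (−2.38 to −2.28) in WT and −2.44 (−2.48 to −2.39) in KO. Counting intervals of premeiotic-like cells, the Stra8 cluster and the pooled later clusters did not overlap in either library.

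All 10 enzymes were lower in the later clusters than in premeiotic-like cells, in both libraries. By a log2 difference of at least 1 this held for 9 of 10 in WT, beside 12.5% of 12319 genes, and for 9 of 10 in KO, beside 14.7% of 12029 genes. Eno1 was the exception, at 12.9 CPM in premeiotic-like, 5.14 CPM in the Stra8 cluster and 8.47 CPM in later WT cells, and at 19.4, 6.65 and 9.78 CPM in KO. Its lowest level was thus in the Stra8 cluster, and it was higher again in the Sohlh1 cluster (11.2 CPM in WT, 12.9 CPM in KO).

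Aldoa stood at 109 CPM in premeiotic-like and 17.3 CPM in later WT cells (−2.66), and at 124 and 17.9 CPM in KO (−2.79). Ldhb stood at 89.1 and 14.8 CPM in WT (−2.59), and at 123 and 16.5 CPM in KO (−2.90). Gpi1 had the smallest difference of the other 9, with 120 and 52.5 CPM in WT (−1.19) and 122 and 47.3 CPM in KO (−1.36). The median over the 10 was −2.09 in WT and −2.33 in KO, and that over all genes was 0.11 and 0.02. Hk1 had 59 UMIs in later WT cells, and its difference of −2.53 had an interval of −3.21 to −1.82.

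Free or carried-over RNA limits how low a level can be read, so the level of each enzyme in germ-like cells was set beside that of the somatic markers, as a percent of the somatic-like level. In premeiotic-like cells, the somatic markers at 50 CPM or more in soma stood at a median of 1.61% (0.316% to 11.5%, 21 markers) in WT and 2.73% (1.28% to 8.23%, 19 markers) in KO. Gapdh was at 40.3% and 43.3% there, and Gpi1 at 102% and 104%, close to its somatic level. Tpi1 (5.82% and 6.98%) and, in WT, Ldha (9.97%) and Eno1 (7.79%) lay inside the range of the markers. In KO, Ldha (13.7%) and Eno1 (9.62%) lay above it.

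In the later germ clusters the same markers stood at a median of 1.56% (0.426% to 8.42%) in WT and 1.5% (0.808% to 10.8%) in KO. Gpi1 (44.6% and 40.3%), Pkm (22.2% and 20.9%) and Pgk1 (16.4% and 18.9%) were above every marker. The other 7 enzymes lay inside the range of the markers, in both libraries. Gapdh was near its top, at 8.02% in WT, above 19 of 21 markers, and at 7.998% in KO, above 17 of 19. Tpi1 was near its middle, at 1.24% and 1.5%, above 9 of 21 and 10 of 19 markers. Ldha stood at 2.58% and 2.496%, Ldhb at 2.58% and 2.84%, Aldoa at 3.35% and 3.5%, Hk1 at 4.81% and 5.85% and Eno1 at 5.12% and 4.84%. The part of carried-over RNA in the levels of these 7 was not tested. Of the 25 somatic markers none was at 0 in WT later clusters, and Foxl2, a granulosa transcription factor, was at 0 in KO.

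**Figure D2:**
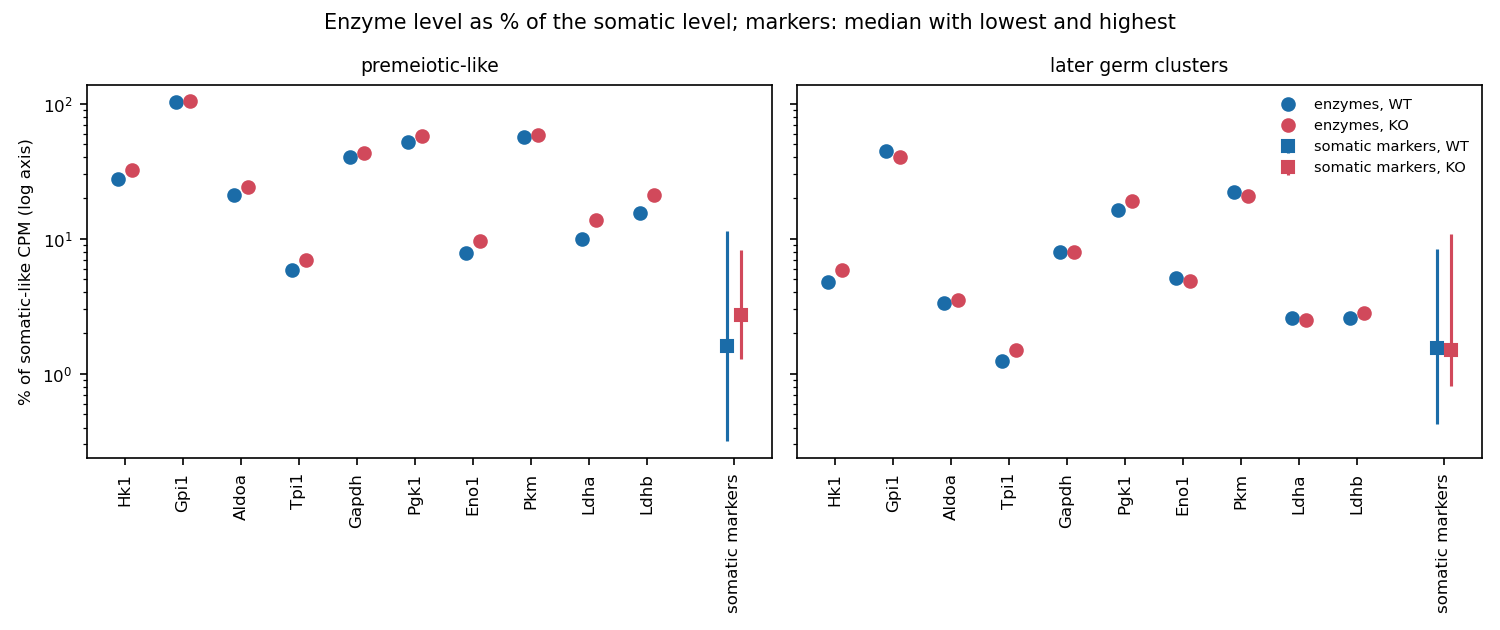
Level of each enzyme in premeiotic-like cells (left) and later germ clusters (right) as a percent of its level in somatic-like cells of the same library, on a log axis, with WT in blue and KO in red. Squares and bars give the median, lowest and highest value of the somatic markers, within which 7 enzymes lie in the later clusters, while Gpi1 is at 44.6% and 40.3%.

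Pooled over germ-like cells, all 10 enzymes had a KO over WT ratio above 0, and the counting interval of Gpi1 alone held 0. The shares of all genes above 0, or with an interval without 0, are not given here. These counts are thus no result about the enzymes as a set. Gapdh was at 169 CPM in KO and 132 CPM in WT, a log2 ratio of 0.36 (0.33 to 0.39). Ldhb had the largest ratio, at 31.5 against 22.0 CPM (0.52, 0.45 to 0.59), and Gpi1 the smallest, at 59.5 against 58.7 CPM (0.02, −0.03 to 0.07). The median of the 10 was 0.31, and the median of 13800 genes with at least 100 UMIs was −0.05.

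Somatic markers also stood higher in KO germ-like cells. The 25 somatic markers stood at a summed 108 CPM in KO and 88.8 CPM in WT germ-like cells, a log2 ratio of 0.28 (0.25 to 0.32), at a median of 1.81% and 1.53% of their somatic level (0.865% to 9.02% and 0.429% to 7.76%), and 0 of the 25 were at 0 in either library. Their part in the ratios of the enzymes was not tested.

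By the size limit of a log2 ratio of 0.25, 7 of 10 enzymes were higher in KO and 0 lower, beside 8.61% of all genes higher and 19.3% lower. The 7 were Ldhb, Hk1 (0.47, 0.09 to 0.86), Tpi1 (0.37, 0.24 to 0.51), Gapdh, Aldoa (0.34, 0.27 to 0.41), Ldha (0.28, 0.18 to 0.39) and Pgk1 (0.26, 0.06 to 0.46). Eno1 (0.24), Pkm (0.08) and Gpi1 were under the limit. The study set its limit of 0.25 on a natural log scale. By that limit on the ratio, 3 of 10 were higher (Ldhb, Hk1 and Tpi1), beside 4.87% of all genes, and Gapdh was just under it. By a difference of 0.25 in ln(CP10k + 1), where CP10k is UMIs per 10000, 0 of 10 were higher. All enzymes but Gapdh stood at 93.1 CPM or less, where the added 1 outweighs the level. That count was thus largely set by the levels, and no share of all genes is given for it. Among genes at 10 CPM or more in WT the background was 3.90% higher, and 4 of the 6 enzymes at that level were. The Gapdh ratio lay 0.08 above the median of the other 9 enzymes (0.28), of which 6 were lower, and 4.93% of all genes had a ratio as high as that of Gapdh.

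**Figure D3:**
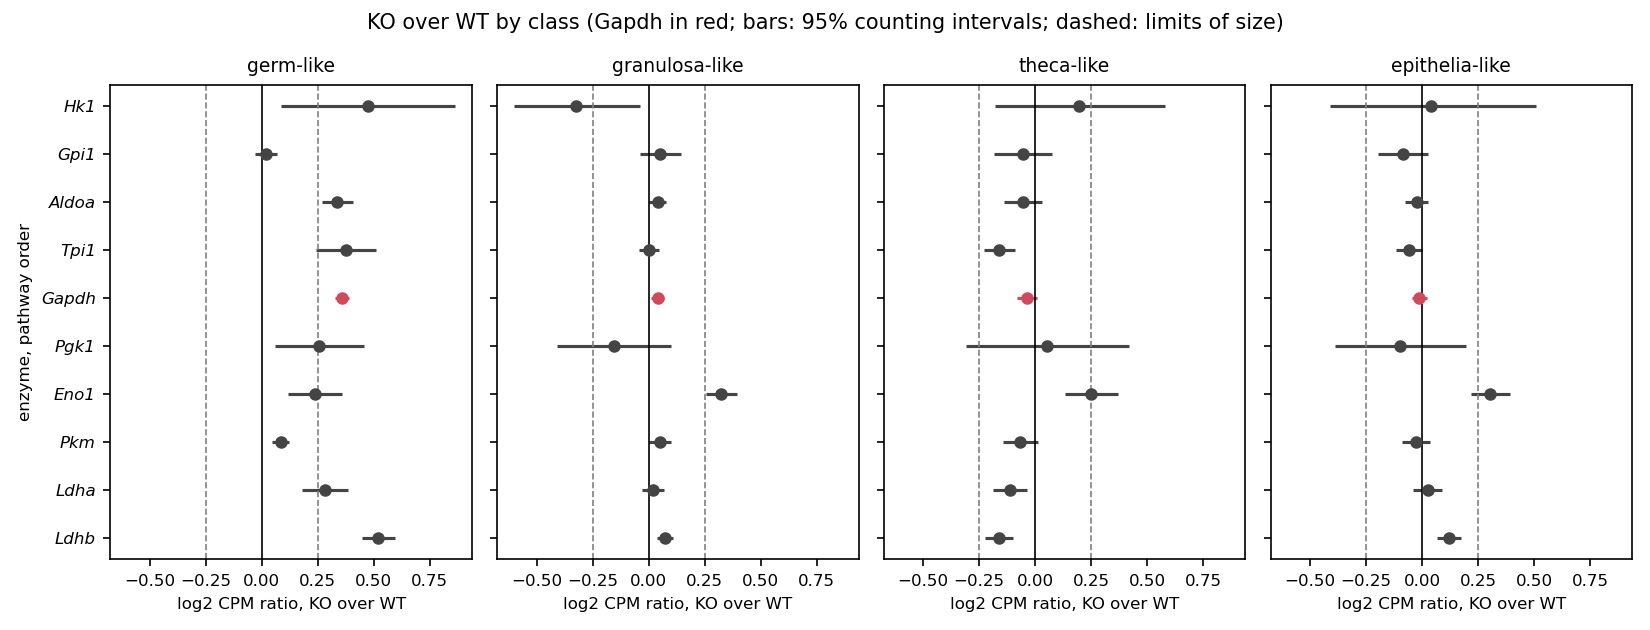
KO over WT log2 CPM ratio of each enzyme, in pathway order, in the 4 main classes, with Gapdh in red, bars for exact 95% counting intervals and dashed lines at the size limit of 0.25. In germ-like cells all 10 ratios are above 0 and 7 are past the limit, beside 8.61% of all genes. In the somatic classes most lie near 0, and Eno1 stands at 0.25 to 0.32.

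The germ clusters did not hold the same share of cells in the 2 libraries. The premeiotic-like cluster made up 6.49% of KO and 4.79% of WT germ-like cells, and the Stra8 cluster 14.3% and 5.55%. The deep cluster made up 6.88% and 24.96%, and its counterpart made without Nr3c1 7.56% and 27.2%. It was also the deepest later cluster, with a median of 20952 UMIs in KO and 24230 in WT. The 2 clusters in which most enzymes were high were thus more frequent in KO.

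Within clusters the Gapdh ratio was small. It was 0.10 (0.04 to 0.16) in premeiotic-like cells, 0.13 (0.06 to 0.20) in the Stra8 cluster and −0.01 (−0.05 to 0.03) in the later clusters together. Among the 7 germ clusters only the Lars2 cluster, of 335 cells in each library, was past the limit for Gapdh (0.39, 0.15 to 0.63). In the later clusters together, 0 of 10 enzymes were higher, beside 7.07% of 13331 genes, and 0 lower, beside 19.3%. Somatic markers had a summed log2 ratio of 0.18 there.

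Single later clusters held more enzymes past the limit, on fewer UMIs. The shares of all genes are not given for them, so nothing is read about the enzymes as a set from counts past the limit. Ldhb was past it in 4 of the 5, at 0.58 (0.31 to 0.86) in the Inca1 cluster, 0.32 (0.11 to 0.54) in the Hist1h2ba cluster, 0.27 (−0.03 to 0.57) in the Sohlh1 cluster and 0.79 (0.25 to 1.33) in the Lars2 cluster. Tpi1 was past it in 3, at 0.31 (−0.03 to 0.66) in the Hist1h2ba cluster, 0.51 (0.04 to 0.99) in the Sohlh1 cluster and 0.39 (0.08 to 0.70) in the deep cluster. The Inca1 cluster also held Eno1 (0.56, 0.15 to 0.98), Aldoa (0.35, 0.09 to 0.61) and Pgk1 (0.42, −0.23 to 1.11), and the Hist1h2ba cluster Eno1 (0.36, 0.09 to 0.63). Lower in KO were Pkm in the Sohlh1 cluster (−0.25, −0.36 to −0.14) and Gpi1 in the Lars2 cluster (−0.32, −0.69 to 0.04). In all 5 clusters the somatic markers had a summed log2 ratio above 0, from 0.17 in the Hist1h2ba cluster to 0.52 in the Lars2 cluster, and their part in these ratios was not tested.

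When KO clusters were weighted to their WT shares of UMIs, the Gapdh ratio in germ-like cells was 0.08 and 3 of 10 enzymes were past the limit, namely Tpi1 (0.31), Ldhb (0.28) and Eno1 (0.28). With premeiotic-like cells, the Stra8 cluster and the later clusters as 3 groups, so that the deep cluster set no weight, Gapdh was at 0.04 and only Eno1 (0.26) was past the limit. With 10 bins of a stage score, Gapdh was at 0.08 and 2 enzymes were past it. With the germ clusters made without Nr3c1, Gapdh was at 0.11 and 3 enzymes were past it. The last 3 weightings were chosen after the data were seen. The share of all genes past the limit is not given for any weighting, so these counts stand without a background. Under the cluster weighting the ratio of Stra8 was 0.05 instead of 0.61, and that of Nr3c1 was −2.71. Gapdh then lay 0.09 below the median of the other 9 instead of above it (−0.09). Genotype, the pooled embryos and the sort cannot be told apart as sources of the shares. The limits on cells also differed, with at most 30000 UMIs in KO and 40000 in WT. Their part in the shares, including that of the deep cluster, was not tested.

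**Figure D4:**
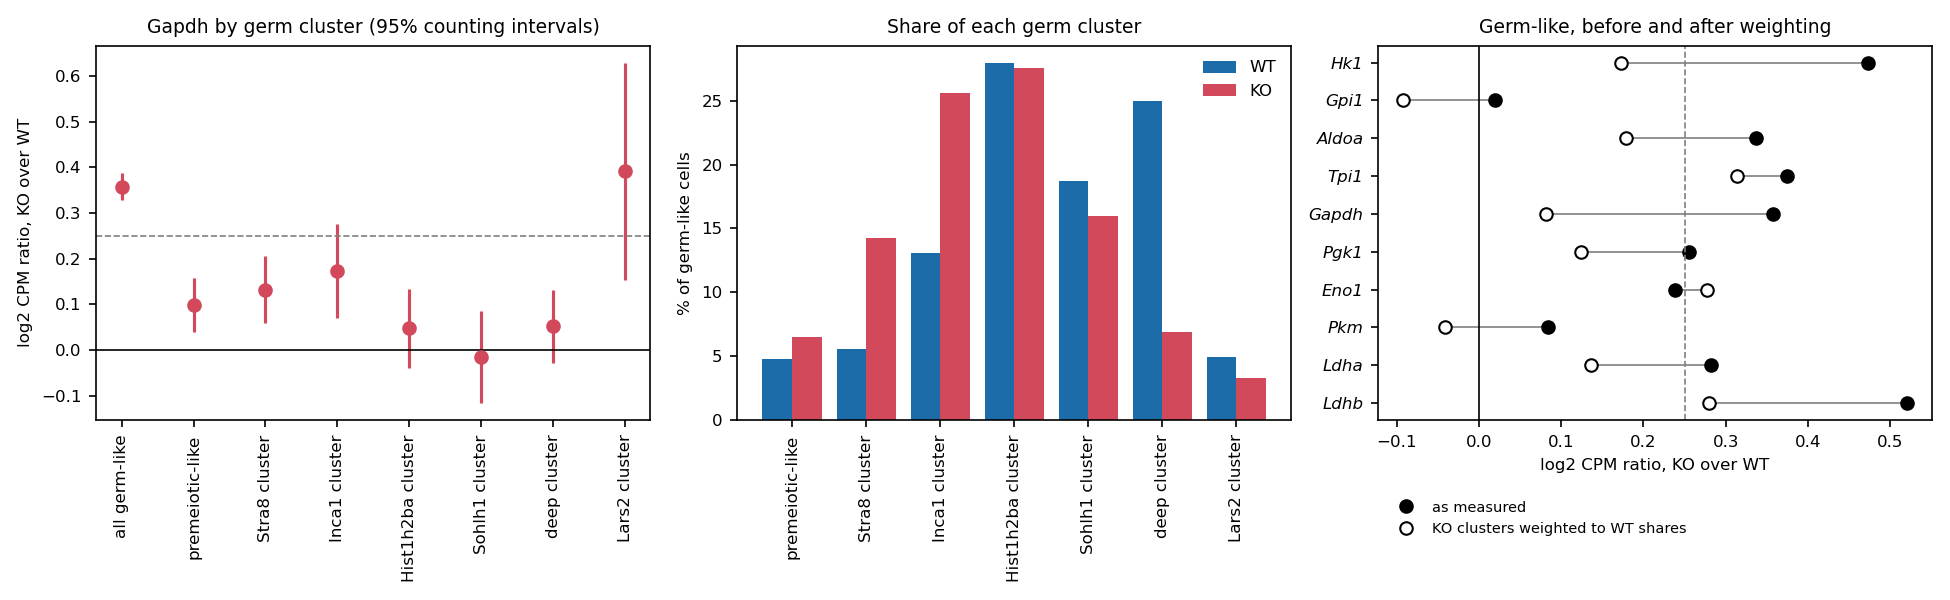
Left, KO over WT log2 CPM ratio of Gapdh in all germ-like cells and in each germ cluster with 95% counting intervals. Middle, the percent of germ-like cells in each cluster for WT (blue) and KO (red), of which the deep cluster is led in part by the deleted gene. Right, the ratio of each enzyme as measured (filled) and with KO clusters weighted to WT shares (open), where Gapdh moves from 0.36 to 0.08.

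A few enzymes differed inside the early clusters. In premeiotic-like cells, Eno1 was at 19.4 CPM in KO and 12.9 CPM in WT (0.59, 0.25 to 0.94), Ldhb at 123 and 89.1 CPM (0.46, 0.33 to 0.59) and Ldha at 48.3 and 35.6 CPM (0.44, 0.23 to 0.65). These 3 were the enzymes past the limit among the 9 with 100 UMIs there, beside 14.0% of 8796 genes higher, and 0 were lower, beside 10.3%. In the Stra8 cluster Eno1 alone was past it, at 0.37 (−0.16 to 0.94) on 143 and 37 UMIs. The share of all genes is not given for that cluster. Somatic markers also stood higher in KO premeiotic-like cells, at a summed 174 CPM against 116 CPM in WT (0.59), with Gpm6a at 0 in KO and Foxl2 and Upk1b at 0 in WT, and the part of this in the ratios was not tested.

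In the somatic classes Gapdh was nearly level. It was at 1393 CPM in KO and 1355 CPM in WT granulosa-like cells (0.04, 0.01 to 0.07), at 664 and 680 CPM in theca-like cells (−0.04, −0.08 to 0.01) and at 1536 and 1549 CPM in epithelia-like cells (−0.01, −0.05 to 0.02). Gapdh minus the median of the other 9 enzymes was −0.00, 0.02 and 0.01 in these classes.

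Eno1 was the enzyme that stood apart in soma. It was at 253 CPM in KO and 202 CPM in WT granulosa-like cells (0.32, 0.26 to 0.39), at 263 and 213 CPM in epithelia-like cells (0.30, 0.22 to 0.39) and at 109 and 91.9 CPM in theca-like cells (0.2497, 0.13 to 0.37), just under the limit. In granulosa-like cells Eno1 was the 1 enzyme higher, beside 10.0% of genes, and Hk1 the 1 lower, beside 12.4%. Hk1 was at 12.2 CPM in KO and 15.2 CPM in WT there (−0.32, −0.60 to −0.04). In epithelia-like cells Eno1 alone was higher, beside 12.0% of genes, and 0 were lower, beside 7.82%. In theca-like cells 0 enzymes passed the limit in either direction, beside 15.8% of genes higher and 10.7% lower. A share near the background is no result about the enzymes as a set.

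Transcripts of germ markers in the somatic classes were more abundant in KO. The 10 germ markers stood at a median of 16.8% of their germ-like level in KO and 12.1% in WT granulosa-like cells, at 22.9% and 15.7% in theca-like cells and at 11.7% and 9.77% in epithelia-like cells, with 0 markers at 0. In a finer clustering, a theca-like subcluster with germ genes held 317 KO and 58 WT cells. Its median was 15246 UMIs in KO and 20287 in WT, against 5841 and 9176 in the main theca-like subcluster. The part of doublets in it was not tested. In the main theca-like subcluster the Gapdh ratio was 0.11 (0.06 to 0.17) instead of −0.04, at 764 CPM in KO and 708 CPM in WT. There Eno1 was at 0.44 (0.30 to 0.57) and Hk1, at 14.8 and 10.9 CPM on 122 and 71 UMIs, was past the limit as well (0.44, 0.01 to 0.89). The Gapdh ratio was 0.16 (0.06 to 0.27) in the cycling theca-like subcluster. In the subcluster with germ genes it was 0.10 (−0.06 to 0.25), at a lower level of 378 CPM in KO and 353 CPM in WT. The part of carried-over germ RNA in the somatic ratios was not tested.

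Soma was not uniform in its enzymes. Theca-like cells were lower than granulosa-like cells for all 10, with a median log2 difference of −0.84 in WT and −0.97 in KO, while epithelia-like cells were near granulosa-like cells (0.09 and 0.01). Among granulosa-like cells, the Ramp1 subcluster was below the Lgr5 subcluster for Eno1 (98.4 against 228 CPM in WT, 112 against 277 CPM in KO) and for Ldha (234 against 476 CPM in WT, 229 against 467 CPM in KO). Ldhb went the other way there, at 878 against 752 CPM in WT and 914 against 802 CPM in KO.

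Immune-like cells carried the highest Gapdh level of all types, at 1853 CPM in WT and 1753 CPM in KO, and the next level, in epithelia-like cells, did not overlap it in counting intervals. In the same cells Ldhb was at 45.0 CPM in WT and 60.0 CPM in KO while Ldha was at 559 and 596 CPM. Endothelia-like cells had the highest Hk1 level, at 27.0 and 28.7 CPM, on 10 and 40 UMIs. Erythroid-like cells (15 in WT, 53 in KO) had Gapdh at 586 CPM in WT and 242 CPM in KO (−1.28, −1.56 to −1.0), and Ldhb at 29.8 and 72.6 CPM on 11 and 64 UMIs.

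Summed over whole libraries, Gapdh was at 468 CPM in KO and 346 CPM in WT (0.43, 0.42 to 0.45), and 9 of 10 enzymes were higher by the limit, all but Gpi1 (0.11), beside 16.8% of 15408 genes, and 0 were lower, beside 13.2%. Somatic-like cells were 34.2% of KO and 24.9% of WT cells. With KO classes weighted to their WT shares, for which no share of all genes is given, Gapdh was at 0.12. Only Eno1 (0.29) was then past the limit. In such a sum, fewer cells of a type and less RNA per cell cannot be told apart.

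Genes often used as references in bulk assays were set beside Gapdh in germ-like cells. Among 16, Tubb5, a tubulin (251 CPM in KO, 206 CPM in WT, 0.29), and Gusb, the lysosomal glucuronidase (2.09 and 1.65 CPM, 0.34), were past the limit, and the median was −0.02. Over all genes 8.61% were higher and 19.3% lower. Actb was at −0.02, Hprt at 0.09, Ppia at 0.16, Ywhaz at 0.04 and Eef1a1 at −0.01. Tbp (−0.13), B2m (−0.12), Sdha (−0.05), Rplp0 (−0.15), Rpl13a (−0.19), Tfrc (−0.10) and Polr2a (−0.04) were lower by less than the limit. The Gapdh ratio of 0.36 was above that of each of the 16 in this pooled sum. In the later clusters together Gapdh was at −0.01 and Gusb at 0.26, and under the cluster weighting Gapdh was at 0.08.

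The wider pathway was covered by 22 further glycolytic genes and isozymes, of which 13 had 100 UMIs in germ-like cells. Of these, 1 was higher and 0 lower, beside 8.61% of all genes higher and 19.3% lower, and the median was −0.01. The higher gene was Pfkl, the liver-type phosphofructokinase, at 1.57 CPM in KO and 1.19 CPM in WT (0.40, 0.08 to 0.73). Aldoc, another aldolase, was at 0.99 and 0.84 CPM (0.25, −0.15 to 0.64), just under the limit.

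Sperm-type isozymes were few in UMIs or at 0. Pgk2 had 0 UMIs in either library, which allows up to 3 per library, Gapdhs had 2 UMIs in KO germ-like cells and 0 in WT, and Aldoart1 had 0 in germ-like cells of both libraries. Aldoart2 had 16 and 35 UMIs. Ldhc, the testis lactate dehydrogenase, was at 4.62 CPM in KO and 4.12 CPM in WT germ-like cells (0.17), and Pdha2 at 4.42 and 5.12 CPM (−0.21). The last, a subunit of pyruvate dehydrogenase, and Ldhc were the 2 of this list with 100 UMIs, and 0 of them passed the limit.

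Of the sugar and lactate transporters, 3 of 8 measured were higher and 1 lower in KO germ-like cells. Over all genes 8.61% were higher there and 19.3% lower. In the later germ clusters together, 0 of 6 measured transporters were higher and 3 lower, with a median of −0.25. Over all genes 7.07% were higher in those clusters and 19.3% lower. Over germ-like cells Slc2a4, the insulin-responsive glucose transporter, was at 0.608 CPM in KO and 0.249 CPM in WT on 74 and 30 UMIs (1.29). Slc16a3, a lactate exporter, was at 0.583 and 0.332 CPM on 71 and 40 UMIs (0.81). Mpc1, a subunit of the mitochondrial pyruvate carrier, was at 209 and 172 CPM (0.28) and was the 1 of 11 genes of pyruvate entry past the limit. Pdhb, of pyruvate dehydrogenase, was at 58.6 and 66.6 CPM (−0.18).

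Among the 8 pentose phosphate genes 0 were higher and 1 was lower, namely Rpia, ribose phosphate isomerase (21.8 CPM in KO and 26.4 CPM in WT, −0.27), with H6pd at 2.24 and 2.58 CPM (−0.20). Of 3 gluconeogenic genes measured, Pck2 was higher (1.06 and 0.772 CPM, 0.46) and G6pc3 was at −0.07. Of 14 hypoxia response genes 2 were higher and 4 lower, beside 8.61% and 19.3% of all genes. Among them Ndrg1 was at 0.665 and 1.88 CPM (−1.49) and Adm at 0.526 and 0.315 CPM (0.74). Pck2 had 129 and 93 UMIs, Ndrg1 81 and 226, and Adm 64 and 38. These values come from the same cells and cluster shares as those of the enzymes.

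Across the 7 classes of WT, the genes with the pattern most like Gapdh, by Pearson correlation of log2(CPM + 1), were Prr13 (0.983), Glb1 (0.978), Tradd (0.977), Ldha (0.974) and Aldoa (0.973). The 7 points share 1 library and carried-over RNA. Ldhb was the enzyme least like Gapdh, at 0.569, followed by Hk1 at 0.703.

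Copies of the enzyme genes limit the levels. Gapdh had 124 other annotated genes with at least 95% identity over 200 bases or more, of which only Gm3839 was a row of the matrices, with 564 UMIs in KO and 559 UMIs in WT over all barcodes, 0.781% of those of Gapdh. Eno1b was 99.5% identical to Eno1 over 1736 bases and had 245 and 183 UMIs against 12314 and 6775 of Eno1. Whether reads that matched such copies were dropped in counting was not given in the sources used here, so absolute levels of Gapdh, Eno1 and Pgk1, with 4 copies, are uncertain, and both libraries are counted alike.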

How the data were processed

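The deposited matrices hold raw UMI counts per gene and barcode. Per the labels and methods, the authors made them with Cell Ranger on mm10 and analysed them in Seurat 3.2.3; the Cell Ranger version and annotation are not given in the sources used here. Cells were kept by the study's limits (WT 1500 to 6500 genes and 5500 to 40000 UMIs, KO 1200 to 5500 genes and 3000 to 30000 UMIs, under 10% mitochondrial), 86.95% of 17829 KO and 79.13% of 11430 WT barcodes. Without the enzymes and carbohydrate lists, cells were clustered with scanpy 1.11.5 (2000 variable genes, 30 components, 20 neighbours, Leiden resolution 0.5) and named from at least 3 markers above 2-fold. Nr3c1 was kept among the clustered genes and left out in an alternative.

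Counts were summed per class and library. CPM had exact Poisson and log2 ratios exact conditional binomial 95% intervals, and the script was tested on simulated data. The study's limit of 0.25, on a natural log scale there, was set here on log2 CPM ratios, for genes with 100 UMIs over both sides, with the natural log scale as an alternative. Doublets were not removed, since the study's methods were followed; removing those that Scrublet marked (6.6% of KO and 2.6% of WT cells) was an alternative, as were other cell limits, depth, scaling, clustering and stage mixes. The members and lists were chosen with earlier results of these data known. Named were the 10 members, Nr3c1, the 2 largest ratios of each wider list, all sperm-type isozymes and reference genes (some values are not reported here) and the 5 genes most like Gapdh; subcluster and marker genes were named after their values were seen. Copies were found with blastn 2.17.0.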

Additional observations from a re-analysis of the deposited data

Results flagged for a closer look

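Hk1 was past the size limit in opposite directions in 2 classes, at a log2 ratio of 0.47 in germ-like and −0.32 in granulosa-like cells. It had 97 to 236 UMIs in each sum, and with 1 library per genotype the difference between the classes was not tested. In granulosa-like cells its ratio lay between −0.45 and −0.18 over the alternatives, and in germ-like cells between 0.17 and 0.65. The germ-like value was that of the pooled sum, and with KO clusters weighted to WT shares it was 0.17. Hk1 was under the limit in premeiotic-like cells (0.14, −0.60 to 0.90) and in the Stra8 cluster (0.21, −0.79 to 1.33). The same held for the later clusters together (0.21, −0.34 to 0.76), where its level lay inside the range of the somatic markers. In the main theca-like subcluster Hk1 was past the limit too, at 0.44 (0.01 to 0.89) on 122 KO and 71 WT UMIs.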

How the results depend on the processing

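The germ-like Gapdh ratio of KO over WT was 0.50 with the same cell limits in both libraries, 0.27 with cells thinned to 3000 UMIs, 0.41 centred on the median of all genes, 0.31 as a mean over cells and 0.29 without the deep and Lars2 clusters. It was 0.082 with KO clusters weighted to WT shares, 0.10 with WT clusters weighted to KO shares, 0.076 with 10 score bins, 0.037 with 3 stage groups and 0.11 with clusters made without Nr3c1. In the order of cell limits, thinning, mean over cells and no deep and Lars2 clusters, Gapdh minus the median of the other 9 was 0.030, 0.12, 0.041 and 0.038, and in the order of the 5 weightings it was −0.091, −0.084, −0.022, −0.068 and −0.073. Of the 10 enzymes, 4 were higher with thinning, 1 at a limit of 0.5, 3 at 0.25 on the natural log scale, 0 by a difference of 0.25 in ln(CP10k + 1), and 3, 3, 2, 1 and 3 under the 5 weightings. These were values with no test. Among these settings the share of all genes past the limit is given only for the natural log scale, at 4.87%. The count in ln(CP10k + 1) was largely set by the low levels.

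The whole-library Gapdh ratio was 0.41 with the same cell limits, with thinning and as a mean over cells, 0.42 scaled without mitochondrial, ribosomal protein and haemoglobin genes, 0.50 without cells holding UMIs of another class's markers, and 0.12 with classes weighted. The Gapdh germ-like over somatic-like difference was −3.01 in KO and −3.27 in WT without Scrublet doublets, −3.04 and −3.27 with thinning, −3.02 and −3.30 as a mean over cells, −3.09 and −3.35 without cells holding other classes' markers, and −2.73 and −3.03 without the deep and Lars2 clusters. It was −2.83 in KO with the other scaling and −3.34 in WT with the same cell limits. The median of the 10 was −3.93 and −4.19 without Scrublet doublets, −4.08 and −4.27 with thinning, and −4.10 and −4.30 without cells holding other classes' markers. In KO it was −3.96 as a mean over cells and −3.59 without the deep and Lars2 clusters, and in WT −4.28 with the same cell limits. The cause of these shifts was not tested.

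Of the values that these alternatives gave for the germ-like and whole-library Gapdh ratios, Gapdh minus the median of the other 9, the germ-like over somatic-like differences and the germ-like count of enzymes, 55 moved by more than the counting interval (for the count, by over 1.5 times) and 43 did not. Over all alternatives, the sign of the single-enzyme ratios was as reported in 148 of 160 germ-like, 91 of 100 granulosa-like, 87 of 100 theca-like and 84 of 100 epithelia-like values. Without a UMI minimum, 18.9% of genes were higher and 26.9% lower in germ-like cells. The alternatives without the deep and Lars2 clusters or without Nr3c1, the natural log limit and 4 of the weightings (WT clusters to KO shares, score bins, 3 groups and clusters made without Nr3c1) were chosen after seeing the data. No paired analysis was possible because each genotype had 1 library and no result came from a test; leaving out a replicate was likewise impossible.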
